A study of Mus musculus with 1183 samples.

Results

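Neutrophils that held transcripts of Ngp, the gene of neutrophilic granule protein, were set against neutrophils that did not, in the distal lung of hyperoxic newborn mice. The cells were those with the neutrophil label of the authors and at least 100000 reads. A cell was Ngp-positive when Ngp took at least 10 of every 1000000 reads (10 CPM), and Ngp-negative below that. Of 1183 immune cells, 11.2% were labelled neutrophils of that depth, 55 from the female and 78 from the male animal, and 1 more labelled neutrophil was too shallow. The female gave 9 Ngp-positive and 46 Ngp-negative cells and the male 20 and 58, so 29 cells were positive in all. The cells were chosen by their measured Ngp level, so that level is a description without a test.

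The series is single-cell RNA sequencing of sorted cells, with plate-based libraries made by Tn5 transposase, an enzyme that cuts DNA and adds adapters. The cells compared here came from 1 female and 1 male mouse at postnatal day 7 under hyperoxia, that is, breathing raised oxygen, a model of injury to the immature lung. Both states shared treatment, age and the 4 CD45 plates, and the labels give no strain, allele or oxygen level. The 4 plates of CD45-sorted cells, CD45 being a surface protein of blood-derived cells, held 27 and 27 of the neutrophils of the female and 42 and 34 of those of the male, and 3 more, all Ngp-negative, came from plates of a mesenchymal and a CD31 gate. Sample titles carry the code DC28 for the first CD45 plate of the female, and DC35 for her second and for those of the male. The titles do not say what these codes are. The animal is the replicate (n = 2 per state, each animal giving cells of both states), so every p-value below rests on 2 mice. With the animal as a block, the test sets the difference between the states within the animals against its variation between these 2 mice. That variation is estimated with information from all genes, so a small p-value does not measure how well the mice agreed in a single gene.

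Neutrophils develop in the bone marrow and fill their granules in order. Primary granules with myeloperoxidase and elastase come early, secondary granules with lactoferrin, cathelicidin, lipocalin 2 and neutrophilic granule protein come at the next stage under the transcription factor C/EBP-epsilon, and gelatinase granules and secretory vesicles follow. Mature cells carry the receptor for granulocyte colony-stimulating factor and the chemokine receptor CXCR2 at high levels, and in inflamed tissue they make interleukin 1 beta.

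Ngp, Camp and Ltf lie on chromosome 9. The stretches upstream of these genes are shown because these genes were high in the same 20 cells, with those of Chil3, another gene of the Ngp-positive cells, and Il1b, a gene of the Ngp-negative cells. Each run ends before the start annotated by RefSeq or before the nearest annotated exon of GENCODE vM21, whichever came first (RefSeq sequences, build GRCm38.p6), and capitals mark the motifs searched on both strands in the 250 bases before the RefSeq start.
Ngp (chr9:110419558-110419746, plus strand): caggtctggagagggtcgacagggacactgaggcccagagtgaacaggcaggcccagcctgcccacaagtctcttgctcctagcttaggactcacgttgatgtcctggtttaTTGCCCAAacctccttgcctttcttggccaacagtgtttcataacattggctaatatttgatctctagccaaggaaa
Camp (chr9:109849618-109849706, minus strand): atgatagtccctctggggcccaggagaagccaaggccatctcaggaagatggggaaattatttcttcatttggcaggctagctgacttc
Ltf (chr9:111019042-111019270, plus strand): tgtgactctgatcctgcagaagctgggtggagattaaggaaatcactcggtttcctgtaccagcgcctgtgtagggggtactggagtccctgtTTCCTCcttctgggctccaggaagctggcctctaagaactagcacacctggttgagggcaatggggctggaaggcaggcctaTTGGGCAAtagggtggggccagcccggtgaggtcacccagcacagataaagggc
Chil3 (chr3:106167565-106167814, minus strand): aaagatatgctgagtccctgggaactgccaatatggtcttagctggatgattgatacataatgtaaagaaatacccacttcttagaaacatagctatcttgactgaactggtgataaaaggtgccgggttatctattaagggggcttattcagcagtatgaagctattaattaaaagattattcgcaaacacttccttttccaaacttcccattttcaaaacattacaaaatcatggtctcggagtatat
Il1b (chr2:129371140-129371389, minus strand): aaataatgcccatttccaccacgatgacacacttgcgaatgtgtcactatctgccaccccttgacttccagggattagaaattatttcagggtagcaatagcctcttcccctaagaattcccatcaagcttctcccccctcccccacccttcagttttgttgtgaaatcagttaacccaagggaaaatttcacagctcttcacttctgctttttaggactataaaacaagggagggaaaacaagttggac
The C/EBP motif TTGCNNAA was found in 3 of 6 upstream windows (these 5 genes and Lcn2), those of Ngp, Ltf and Lcn2, and in 9.56% of 32851 RefSeq promoter windows of the same length. Ngp held the printed match and another from 11 to 4 bases before the start, and in Ltf the match lay from 75 to 68 bases before it. The window of Lcn2 is not printed, since an annotated exon covers it. The PU.1 core GAGGAA was found in Ltf and Lcn2 (23.25% of all windows). The NF-kappaB motif (3 G, 2 free letters, 3 T and 2 C in that order) was in none of the 6 windows (1.41% of all windows). Camp, Chil3 and Il1b held none of the 3 motifs in their windows, which says only that these letters are not there.

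Ngp levels lay on either side of a gap in these cells, and ranged widely above it. In the Ngp-negative group 100 cells had 0 Ngp reads and the other 4 had 1 read each, at 1.26, 2.05, 2.49 and 3.38 CPM. The Ngp-positive cells nearest to the threshold stood at 175.7, 313.5 and 361.03 CPM, each from over 100 reads. No cell lay between 3.38 and 175.7 CPM, so the threshold of 10 CPM fell in a gap. The highest cell reached 121316 CPM.

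**Figure D1:**
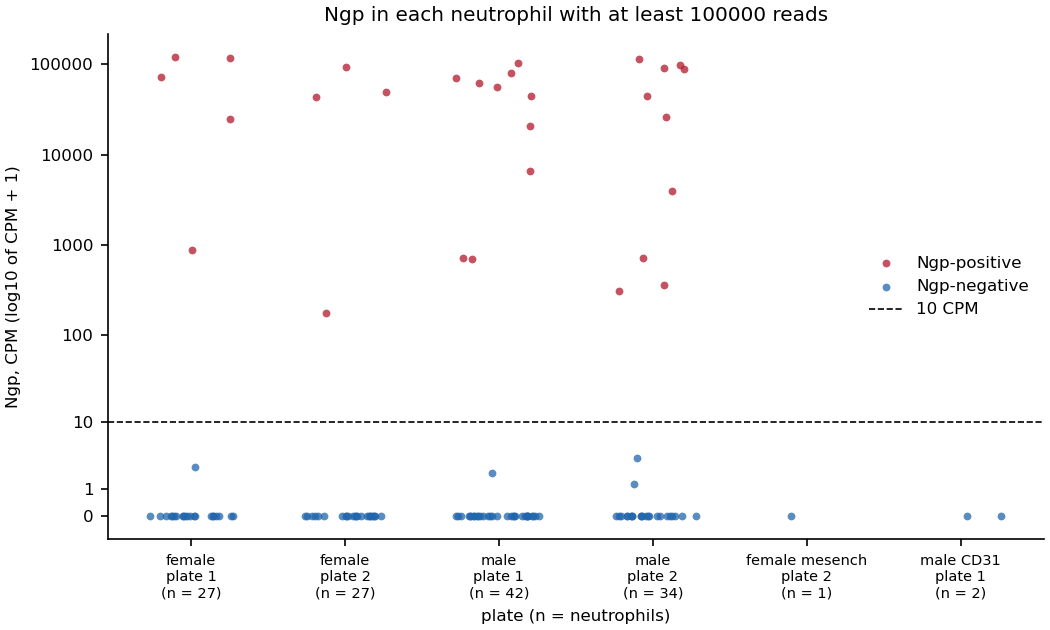
Ngp in CPM (log10 of CPM + 1) in each neutrophil, by plate, with 1 point per cell, coloured by Ngp state; the dashed line is 10 CPM. Every CD45 plate holds cells at or near 0 and cells from 175.7 CPM upward, with none between 3.38 and 175.7 CPM.

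The share of Ngp-positive cells among the neutrophils was 21.8% (29 cells, exact Clopper-Pearson 95% interval 15.1 to 29.8%). It was 16.4% in the female (7.77 to 28.8%) and 25.6% in the male (16.4 to 36.8%), and the intervals overlap. By plate it was 18.5% and 14.8% in the female and 23.8% and 29.4% in the male. These intervals cover counting error only, and 1 animal per sex allows no test of the difference. As background, 4 of 1045 cells of the other labelled subtypes reached 10 CPM of Ngp (0.383%), at median depths of 1167300 reads against 593107 in the neutrophils. Those 4 cells, a DC III, a DC I, a Mac IV and a Mac V cell, stood at 20.3, 76.8, 163.7 and 194.9 CPM, and each had 0 reads of Camp, Ltf and S100a8. The lowest Ngp-positive neutrophil, at 175.7 CPM, lay below that Mac V cell, and the next stood at 313.5 CPM.

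Nearly all cells of both states held more than 1 gene that defines neutrophils. At least 2 of 5 defining genes (S100a8, S100a9, Retnlg, Csf3r and Cxcr2) were at 50 CPM or more in 29 of 29 Ngp-positive cells and all but 1 of the Ngp-negative cells. At least 2 markers of another cell type were at 50 CPM in 4 of 29 Ngp-positive cells and in 11 Ngp-negative cells (of 46 female and 58 male). Of the monocyte list, summed over 5 genes, the Ngp-positive cells had 1101 (female) and 1029 CPM (male), against 328.8 and 325.2 CPM in the Ngp-negative cells. At least 2 of these 5 genes were at 50 CPM in 4 of 29 Ngp-positive cells, the same 4 as above, and in 4 Ngp-negative cells. That is a larger share of the Ngp-positive cells. Ly6c2, which encodes the antigen Ly6C of monocytes and young neutrophils, stood at 830 and 990 CPM against 0 and 27.6 CPM. It was at 10 CPM in 24 of 29 against 3 Ngp-negative cells. Ccr2 had 0 reads in the Ngp-positive cells and Fn1 had 1, so the rest of the Ngp-positive sums came from other genes of the list. Erythroid markers, 3 of 4 of which are in the table, summed to 0 and 0.109 CPM in the Ngp-positive and to 27.002 and 5035 CPM in the Ngp-negative cells, with Hbb-bt and Hba-a1 at 0 in the Ngp-positive cells. Markers of NK cells were all at 0 in the Ngp-positive cells. The 4 endothelial markers summed to 21.1 (female) and 696 CPM (male) in the Ngp-positive and to 77.9 and 443 CPM in the Ngp-negative cells. At least 2 of them were at 50 CPM in 1 Ngp-positive and 4 Ngp-negative cells. The 6 macrophage markers summed to 0.250 (female) and 243.8 CPM (male) in the Ngp-positive and to 1.62 and 17.8 CPM in the Ngp-negative cells. C1qa, C1qb and Marco were at 0 in the Ngp-positive cells, and all 4461 reads of Car4, which gave 243.6 CPM of the male sum, were in 1 cell. Without the cells that held markers of another type, the main test below called 14 genes, 11 higher and 3 lower, and with them 3. The part of such cells in the single values below was not tested. Depth was higher in the Ngp-positive cells, with a median of 867309 reads (176058 to 2651005) against 552136 reads (100101 to 2404374).

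Camp, the gene of cathelicidin, and Ltf, that of lactoferrin, were at 10 CPM or more in 22 Ngp-positive cells each, and in 2 and 1 of the Ngp-negative cells. Over the 29 Ngp-positive cells Camp ran from 0 over a median of 14919 to 27951 CPM, and Ltf from 0 over 14656 to 50686 CPM. Of these cells 21 had both at 10 CPM or more, 1 had Camp alone, 1 Ltf alone and 6 neither. Among the Ngp-negative cells 97.1% had neither, 2 had Camp alone and 1 had Ltf alone, so the 3 genes were at that level together in 21 cells, all Ngp-positive by the rule. Lcn2, the iron-binding lipocalin of secondary granules, was less strict: it was at 10 CPM in 27 of 29 Ngp-positive and in 25 Ngp-negative cells, where its highest value was 3823 CPM. Il1b ran the other way, at 10 CPM in 93 Ngp-negative cells (median 9276, highest 48376 CPM) and in 9 of 29 Ngp-positive cells (median 0, highest 10887 CPM).

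The Ngp-positive cells were not alike. In 20 of them (7 female, 13 male, from all 4 CD45 plates) Ngp was between 21016 and 121316 CPM, in 2 male cells it was 3929 and 6630 CPM, and in 7 cells (2 female, 5 male) between 175.7 and 893 CPM. All 20 high cells had Camp (5328 to 27951 CPM), Ltf (6990 to 50686 CPM) and Lcn2 (7647 to 29997 CPM), while Il1b reached 10 CPM in 2 of the 20. The 7 low cells had Camp below 10 CPM in all, Ltf at 10 CPM in 1 and Lcn2 in 5, and all 7 had Il1b, from 1421 over a median of 6167 to 10887 CPM. In the 7 low cells, then, Ngp and Il1b reads were in the same cell, with Camp below 10 CPM. Across the 29 cells the Spearman rank correlation with Ngp was 0.94 for Camp, 0.90 for Ltf, 0.89 for Lcn2, -0.64 for Il1b and -0.66 for Cxcr2. Within the 20 high cells it was 0.84, 0.74, 0.74, 0.06 and -0.20. These correlations describe cells that share 2 animals and 4 plates, and the shares of one cell compete for the same reads.

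**Figure D2:**
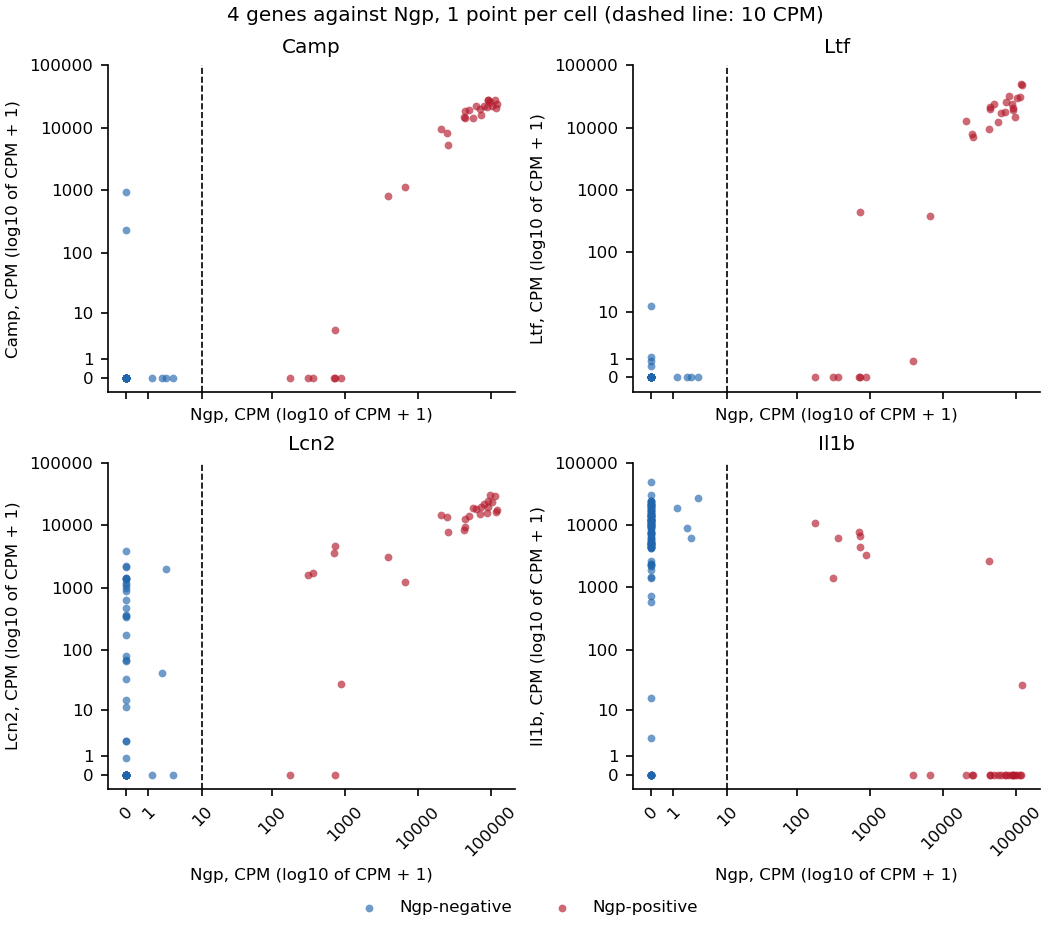
CPM of Camp, Ltf, Lcn2 and Il1b against Ngp (both axes log10 of CPM + 1), 1 point per neutrophil, with a dashed line at 10 CPM of Ngp. Camp and Ltf are high in the 20 cells above 10000 CPM of Ngp, and Il1b is at 10 CPM or more in all 7 cells between 175.7 and 893 CPM of Ngp.

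The medians of other genes also lay apart between the low and the high Ngp-positive cells. Retnlg, which encodes a resistin-like secreted protein, had a median of 17815 CPM in the 7 low cells, 19481 CPM in the pair between and 1293 CPM in the 20 high cells, against 0 in the Ngp-negative cells, of which 43 reached 10 CPM. Cxcr2, the receptor for neutrophil-attracting chemokines, had medians of 1120, 765 and 88.8 CPM along the same order and 707 CPM in the Ngp-negative cells. Fxyd5, a regulator of the sodium pump, had medians of 1879, 682 and 24.5 CPM and 2374 CPM in the Ngp-negative cells, and Ccl6, a chemokine, 1222, 1324 and 0 CPM and 1735 CPM. Lyz2, the gene of lysozyme M, had medians of 1427 CPM in the Ngp-negative and 8689, 18605 and 30729 CPM in the 3 groups of Ngp-positive cells. For Cybb, the membrane subunit of the phagocyte oxidase, the medians were 0, 0, 754 and 2652 CPM. Since Ngp itself set the groups, and they hold few cells, these values carry no test.

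**Figure D3:**
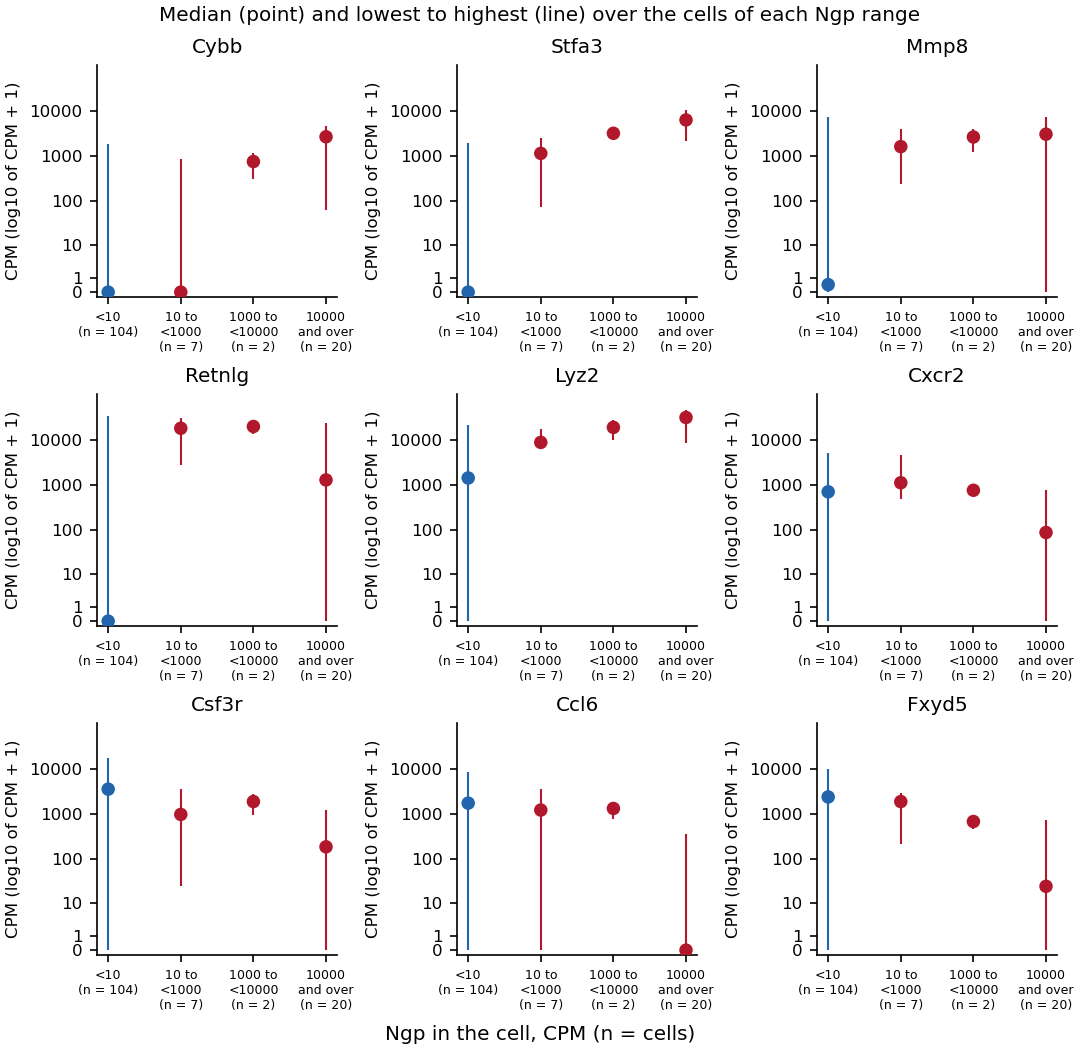
Median (point) and lowest to highest value (line) in CPM (log10 of CPM + 1) of 9 genes over the Ngp-negative cells (n = 46 female and 58 male) and over Ngp-positive cells in 3 ranges of Ngp (n = 7, 2 and 20). The median of Retnlg is highest in the 7 and 2 cells of low and middle Ngp, that of Cybb is highest in the 20 cells of high Ngp, and that of Fxyd5 is lowest there.

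For the test, the reads of all cells of 1 animal and 1 state were added up per gene, Ngp was set aside, and the 4 resulting libraries were compared with the quasi-likelihood test of edgeR with Benjamini-Hochberg adjustment over all genes tested. Of 9354 genes, 3 passed an adjusted p of 0.05, Ltf, Chil3 and Lcn2, all higher in the Ngp-positive cells (0.0321% of the genes tested). None passed as lower (0%), although 760 genes were at an unadjusted p under 0.05, 515 of them lower. Each animal gave cells of both states, and with the animal as a block in the same test 45 genes passed (0.481%), 32 higher (0.342%) and 13 lower (0.139%), among them the same 3. DESeq2 called 813 of 9776 genes (8.32%), 605 of them lower (6.19%) and the rest higher (2.13%), and voom called 14 higher and 1 lower. Of the 45 genes of the block fit, DESeq2 called 20. List genes that passed only with the block are described for that reason, after their values were seen. All 32 higher and 8 of the 13 lower genes lay on the same side on each of the 4 CD45 plates. The other 5 lower genes, Hba-a1, Hba-a2, Hbb-bt, Hbb-bs and Hspa1b, 4 of them hemoglobin genes, each had over 99% of their Ngp-negative reads in 1 cell.

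The scaling of edgeR added 0.32 in the female and 0.63 in the male to each log2 ratio of plain CPM, so folds of that size or less have no firm direction here. The median log2 fold change over all genes tested was -0.14. Over all genes tested, 3.24% were higher in the Ngp-positive cells on 4 of 4 plates and 1642 (17.6%) were lower. The plates were compared in plain CPM, with Ngp in the total and without the scaling of edgeR, so genes lie lower there than in the fit. The counts of list genes on 4 of 4 plates given below were made in the same way and stand against these 2 shares. Per plate, 4 to 10 Ngp-positive cells were set against 22 to 32 Ngp-negative cells. Within each animal, with 1 CPM added to both states, 70 genes at 50 CPM or more were at least 4-fold higher in both animals (0.748% of the genes tested, 15.7% of those so in the female and 30.6% of those so in the male). In the lower direction 886 genes were so in the female and 699 in the male, and 1.81% of the genes tested were so in both (19.1% and 24.2% of the 2 sets). Between the animals, 23 genes were at least 4-fold higher in the female and at least 4-fold lower in the male.

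Secondary granule genes held all 3 calls. Values of a gene are given here for the female, then the male, first of the Ngp-positive and then of the Ngp-negative cells. Ltf stood at 20472 and 14112 CPM against 0.265 and 0.0585 CPM, and in the Ngp-negative cells it had 10 reads in all. Its fitted log2 fold change was 17.10 ± 1.06 (SE; adjusted p = 0.00974 with edgeR), and on the plates it was between 12941 and 25227 CPM in the Ngp-positive and at most 0.411 CPM in the Ngp-negative cells. Chil3, which encodes the chitinase-like protein Ym1, stood at 3164 and 2050 CPM against 0.0331 and 0 CPM, with 75454 reads against 1 read. That is a ratio of 160291 with an exact counting interval of 28768 to 6331230 (log2 fold change 17.34 ± 1.07, SE; adjusted p = 0.00974 with edgeR). Chil3 was at 10 CPM in 18 of the 29 Ngp-positive cells, all 18 among the 20 high cells, and in 0 of the 9 others. Lcn2 stood at 12726 and 14186 CPM against 250.7 and 202.9 CPM, 50.8-fold higher in the female and 69.9-fold in the male (log2 fold change 6.35 ± 0.42, SE; adjusted p = 0.00978 with edgeR). For each of the 3 genes the lowest Ngp-positive plate lay above the highest Ngp-negative plate.

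Chil3 passed under each of 24 alternative settings. Ltf did not pass with voom (adjusted p = 0.131) or with the cells split by Camp (adjusted p = 0.0670 with edgeR), and Lcn2 did not pass with all cell subtypes in the edgeR fit (adjusted p = 0.222).

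All 11 genes of the secondary granule list passed the filter on low counts, with 3 called, 7 called as higher with the animal as a block, 8 higher on 4 of 4 plates and a median log2 fold change of 5.26. Camp, at 15278 and 14460 CPM against 3.05 and 20.5 CPM, had an adjusted p of 0.0631 without and 1.62e-05 with the block (edgeR). On the plates the Ngp-negative values ran from 0 to 49.1 CPM, with 2 Ngp-negative cells at 10 CPM or more. Fcnb, the gene of ficolin B, a sugar-binding protein of the complement pathway, had 8883 reads in 10 Ngp-positive cells, 9 of them at 10 CPM or more, and 0 reads in the Ngp-negative cells, at least 6290-fold higher by a floor of 3 counts over the group (adjusted p = 0.0631 without and 0.000179 with the block, edgeR). Cd177, a surface protein of neutrophil granules, stood at 2917 and 1098 CPM against 90.9 and 48.7 CPM (block log2 fold change 5.22 ± 0.47, SE; adjusted p = 0.000179 with edgeR). Lyz2 stood at 28027 and 25526 CPM against 4124 and 3917 CPM, 6.80-fold and 6.52-fold (adjusted p = 0.000832 with the block, edgeR). Pglyrp1, a peptidoglycan-binding protein, stood at 3757 and 5337 CPM against 2725 and 2415 CPM (adjusted p = 0.343 with the block), and Hp, haptoglobin, at 1853 and 2219 CPM against 2055 and 2353 CPM. Olfm4, a marker of a subset of neutrophils, was at 10 CPM in 9 of 29 and in 34 Ngp-negative cells. The list held genes with next to no reads in the Ngp-negative cells beside genes at similar levels in both states. Without Ngp, the 11 genes took a median of 8.32% of the reads of an Ngp-positive cell (1.49 to 16.4%) and 0.731% of those of an Ngp-negative cell (0 to 3.20%).

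**Figure D4:**
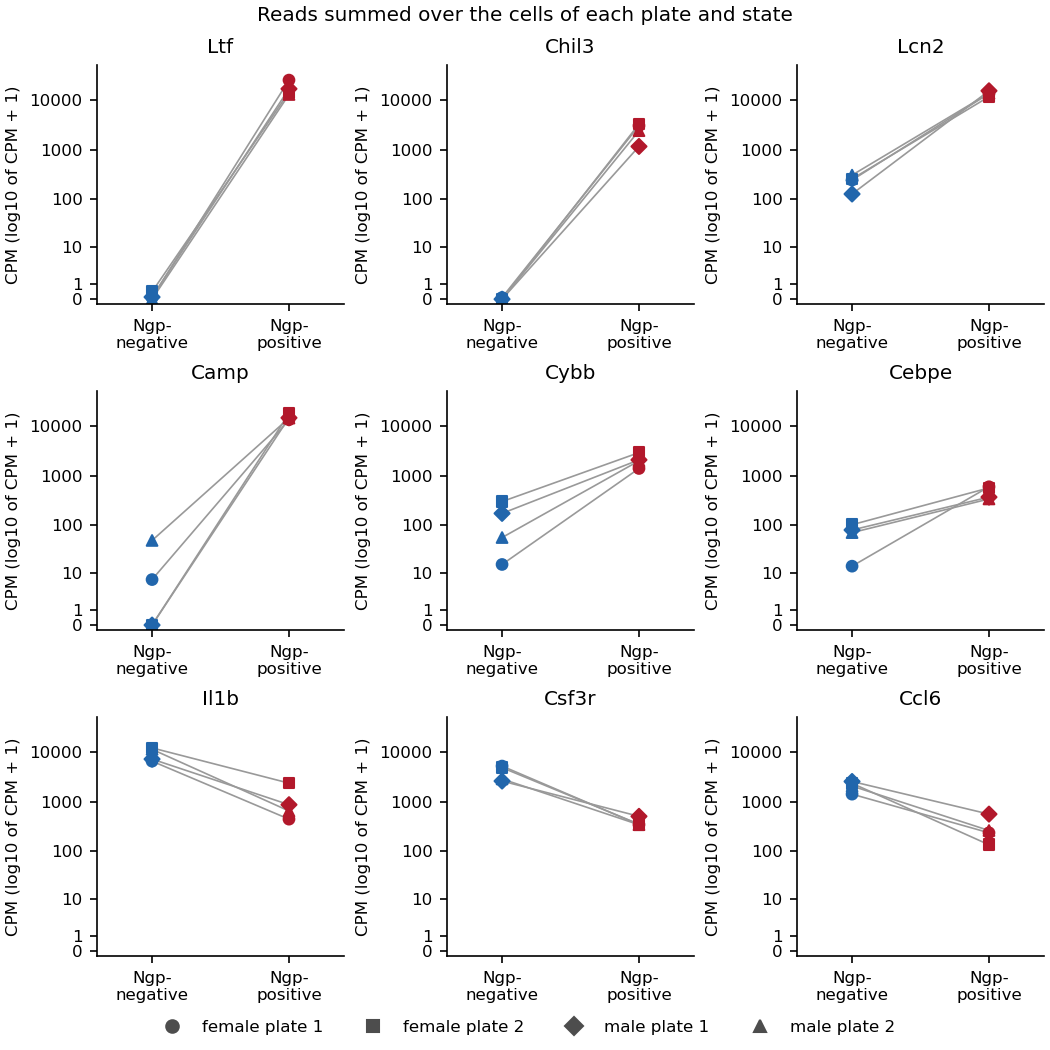
CPM (log10 of CPM + 1) of 9 genes in reads summed over the cells of each CD45 plate and state, with a line joining the 2 states of a plate. Ltf, Chil3, Lcn2, Camp, Cybb and Cebpe are higher, and Il1b, Csf3r and Ccl6 lower, in the Ngp-positive cells on 4 of 4 plates.

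Of the primary granule genes, those of the classical proteases had no reads in either state. Elane, Prtn3 and Ctsg, serine proteases of these granules, had 0 reads in both, which allows up to 0.0990 CPM in the Ngp-positive and 0.0466 CPM in the Ngp-negative cells. Mpo, myeloperoxidase, had 1 read and 6 reads. Of this list 2 genes were tested, neither passed, and they lay on opposite sides on 4 of 4 plates. Cd63, a granule membrane protein, stood at 339.97 and 307.7 CPM against 107.05 and 128.4 CPM (adjusted p = 0.596, edgeR). Ctsc, the protease that activates the serine proteases, stood at 0 and 1.42 CPM against 137.8 and 76.7 CPM (adjusted p = 0.596, edgeR), and was at 10 CPM in 1 Ngp-positive and 11 Ngp-negative cells.

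Of the genes of gelatinase granules and secretory vesicles, 11 of 14 were tested, 3 were higher and 1 lower on 4 of 4 plates, and 2 passed with the block. Mmp8, neutrophil collagenase, stood at 2773 and 2029 CPM against 626 and 392 CPM (adjusted p = 0.00880 with the block, edgeR). Anxa1, annexin A1, a calcium-dependent membrane-binding protein, stood at 8209 and 7330 CPM against 2009 and 942 CPM (adjusted p = 0.00535 with the block, edgeR). Mmp9, gelatinase B, stood at 2270 and 2033 CPM against 2012 and 1603 CPM and did not pass (adjusted p = 0.818 with the block).

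Among 16 tested transcription factors of granulocyte development, Cebpe alone passed with edgeR, with the block, and Myb alone with DESeq2. Cebpe, the gene of C/EBP-epsilon, stood at 586 and 350.1 CPM against 69.7 and 75.5 CPM (log2 fold change 3.11 ± 0.58, SE; adjusted p = 0.0437 with the block and 0.284 without, edgeR) and was at 10 CPM in 22 of 29 against 12 Ngp-negative cells. DESeq2 did not call it (adjusted p = 0.289). Myb, a factor of progenitors, stood at 35.9 and 10.2 CPM against 0.0994 and 0.0293 CPM, in 4 Ngp-positive cells at 10 CPM (adjusted p = 0.000645 with DESeq2 and 0.818 with edgeR and the block), and was higher on 3 of 4 plates. Cebpe was also the only factor of the list that was higher on 4 of 4 plates. Cebpd, Klf2, Klf6, Foxo3, Jund and Junb were lower on 4 of 4 plates, and none of these passed. Klf6, a zinc-finger factor, stood at 201.4 and 263.2 CPM against 905 and 909 CPM (adjusted p = 0.446 with the block), and Junb, a subunit of AP-1, at 536 and 1267 CPM against 2739 and 3277 CPM (adjusted p = 0.401 with the block).

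Transcripts of a list of S100 and other abundant neutrophil proteins were mostly above the Ngp-negative level. Of 15 genes of the list, 10 were higher and 3 lower on 4 of 4 plates, the median log2 fold change was 1.51, and 5 passed with the block. Stfa3, one of a cluster of stefins that inhibit cysteine proteases, stood at 3605 and 4993 CPM against 294.4 and 310.5 CPM, and was at 10 CPM in 29 of 29 against 37 Ngp-negative cells (adjusted p = 0.000376 with the block, edgeR). BC100530, of the same cluster, stood at 14928 and 19731 CPM against 4489 and 5083 CPM (adjusted p = 0.00826 with the block). The stefin genes are near-identical copies, so reads may be split among them. Ifitm6, an interferon-induced transmembrane protein, stood at 2013 and 2307 CPM against 168.5 and 115.4 CPM (adjusted p = 0.000896 with the block), Retnlg at 8272 and 9393 CPM against 2865 and 3221 CPM (adjusted p = 0.0227) and Wfdc21 at 2514 and 2672 CPM against 919 and 740 CPM (adjusted p = 0.0433). S100a8 and S100a9, the 2 chains of calprotectin, were expressed in both states. S100a8 stood at 79216 and 101222 CPM against 42668 and 40998 CPM, a log2 fold change of 1.57 ± 0.32 (SE) that did not pass with the block (adjusted p = 0.0780, edgeR).

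Of the phagocyte NADPH oxidase, the enzyme that makes superoxide, 1 of 7 subunits passed with the block. Cybb stood at 2065 and 2019 CPM against 176.95 and 122.9 CPM, 11.7-fold and 16.4-fold higher (log2 fold change 4.26 ± 0.46, SE; adjusted p = 0.000896 with the block, edgeR), and was at 10 CPM in 25 of 29 against 20 Ngp-negative cells. Cyba, its partner in the membrane, stood at 1557 and 1863 CPM against 1147 and 1061 CPM (adjusted p = 0.599 with the block). Ncf1, a cytosolic subunit, stood at 1781 and 748 CPM against 907 and 610 CPM (adjusted p = 0.619 with the block). The difference between Cybb and its partners was not tested.

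Ly6g, Itgb2l and Lta4h, in no list of functions, were named after their values were seen. Ly6g, which encodes the neutrophil surface marker Ly6G, stood at 526 and 981 CPM against 71.1 and 26.1 CPM, and was at 10 CPM in 21 of 29 against 6 Ngp-negative cells (adjusted p = 0.0167 with the block, edgeR). Itgb2l, an integrin beta subunit like Itgb2, stood at 917 and 517 CPM against 106.1 and 43.6 CPM (adjusted p = 0.00734 with the block). Lta4h, the enzyme that makes leukotriene B4, stood at 728 and 378.04 CPM against 30.1 and 44.1 CPM (adjusted p = 0.00776 with the block).

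Of the cytokine genes, Il1b and Ccl6 were lower in the Ngp-positive cells with the block. Il1b stood at 1283 and 714 CPM against 9535 and 8793 CPM, 7.43-fold lower in the female and 12.3-fold lower in the male (block log2 fold change -2.79 ± 0.36, SE; adjusted p = 0.00341 with the block and 0.178 without, edgeR). The Ngp-negative cells were at 6502 to 12018 CPM and the Ngp-positive cells at 444 to 2353 CPM on the plates. Of the cytokine and chemokine list, 12 of 17 genes were tested, 7 were lower and 0 higher on 4 of 4 plates, 1 had a fold above 0 and the median log2 fold change was -1.91. Ccl6 stood at 191.4 and 351.6 CPM against 1915 and 2310 CPM (adjusted p = 0.0281 with the block, edgeR). Cxcl2, a neutrophil-attracting chemokine, stood at 163.5 and 799 CPM against 1277 and 1165 CPM (adjusted p = 0.818 with the block), and Osm, the cytokine oncostatin M, at 293.2 and 578 CPM against 2101 and 930 CPM (adjusted p = 0.803 with the block). In both genes the male values of the states lay closer together than the female ones.

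Of the receptors for growth factors and cytokines, 1 passed with the block. Csf3r, the receptor for granulocyte colony-stimulating factor, stood at 347.2 and 392 CPM against 4935 and 2683 CPM (log2 fold change -2.83 ± 0.45, SE; adjusted p = 0.0148 with the block and 0.274 without, edgeR). It was nevertheless at 10 CPM in 24 of 29 Ngp-positive and all but 2 of the Ngp-negative cells, so both states held it at different levels. Of 14 receptors tested, 6 were lower and 0 higher on 4 of 4 plates, and 2 had a fold above 0. Il1r2, the decoy receptor for interleukin 1, stood at 149.1 and 96.8 CPM against 568 and 1019 CPM (adjusted p = 0.187 with the block). Il1rap, the shared chain of interleukin 1 receptors, was named after its values were seen: it had 0 reads in the Ngp-positive cells and stood at 216.9 and 106.96 CPM in the Ngp-negative cells, in 31 of them at 10 CPM, at least 1601-fold lower by the floor of 3 counts (adjusted p = 0.0171 with the block, edgeR).

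Of 15 chemokine receptors and adhesion genes tested, 9 were lower and 1 higher on 4 of 4 plates, with a median log2 fold change of -0.98. The higher one, Ceacam1, an adhesion molecule of the immunoglobulin family, passed with the block at 614 and 314.5 CPM against 75.8 and 54.5 CPM (adjusted p = 0.0323, edgeR). Cxcr2 stood at 502 and 312.5 CPM against 1200 and 992 CPM (adjusted p = 0.765 with the block), and Selplg, the ligand of P-selectin, at 393 and 384.5 CPM against 1370 and 928 CPM (adjusted p = 0.746 with the block).

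The list of targets of NF-kappaB, a transcription factor of inflammatory signalling, also held genes of inflammasome complexes, such as Nlrp3 and Casp1. Of the 18 listed genes, 12 were lower on 4 of 4 plates and 0 higher, against 17.6% and 3.24% of all genes tested. The median log2 fold change of the list was -1.35, and none of its genes passed in either fit of edgeR. Without adjustment 6 were lower and 0 higher at a p under 0.05. DESeq2 called 1 lower, against 485 of the 9354 genes that were tested with edgeR. Nfkbia, the inhibitor of NF-kappaB, stood at 400 and 170.3 CPM against 1591 and 1378 CPM (adjusted p = 0.108 with the block). Mcl1, a survival factor, stood at 470 and 297.8 CPM against 1854 and 1110 CPM (adjusted p = 0.318 with the block), and Zfp36, which destabilises cytokine messengers, at 954 and 585 CPM against 2417 and 1911 CPM (adjusted p = 0.608 with the block). Atf3, a stress-induced factor named after its values were seen, passed with the block, at 0 and 0.601 CPM against 227.3 and 284.9 CPM (adjusted p = 0.0148, edgeR). Its log2 fold change ran from -15.6 to -0.055 over the alternative settings, so its size depends on the setting.

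Of 15 innate receptors and adaptors, 10 were lower and 2 higher on 4 of 4 plates, and none passed in either fit of edgeR or with DESeq2 (2 lower and 1 higher at an unadjusted p under 0.05). Clec7a, the receptor dectin-1 for fungal glucans, stood at 3.17 and 103.8 CPM against 1376 and 1244 CPM (adjusted p = 0.107 with the block) and was at 10 CPM in 8 of 29 against 83 Ngp-negative cells. C5ar1, the receptor of the complement fragment C5a, stood at 477 and 450 CPM against 1326 and 877 CPM (adjusted p = 0.849 with the block). Clec4n, the receptor dectin-2, was named after its values were seen, with 0 reads in the Ngp-positive cells and 142.9 and 179.7 CPM in the Ngp-negative cells, at least 1641-fold lower (adjusted p = 0.0192 with the block, edgeR).

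**Figure D5:**
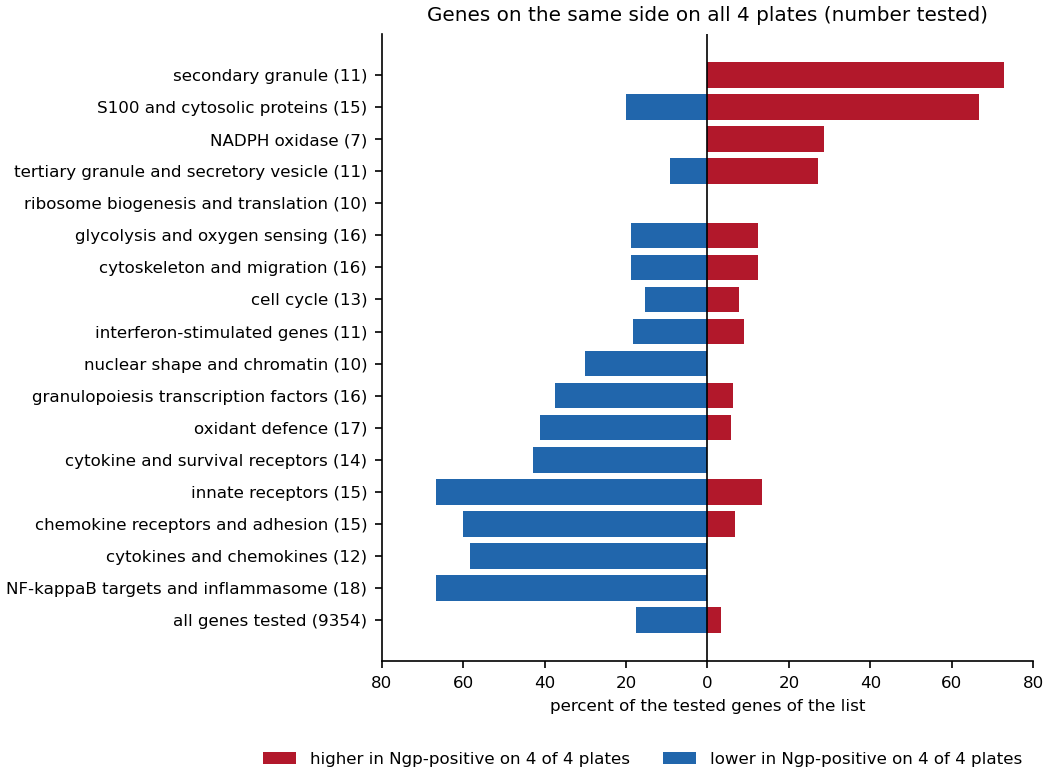
Percent of the tested genes of each list that were higher (right) or lower (left) in the Ngp-positive cells on 4 of 4 CD45 plates, for the 17 lists with at least 7 tested genes and for all genes tested. Of the secondary granule genes 8 of 11 are on the higher side, of the NF-kappaB and inflammasome genes 12 of 18 are on the lower side, and of all genes tested 3.24% and 17.6%.

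By the naming rule, the 5 lower genes with the smallest p without the block, none of which passed there, were Prr5l, Il1b, Csf3r, Ifitm1 and Fxyd5. Prr5l, which encodes a protein bound to the kinase complex mTORC2, had 1 read in the Ngp-positive cells and 15254 reads in the Ngp-negative cells, a ratio of 7181 with an exact counting interval of 1289 to 283635. It stood at 0.0834 and 0 CPM against 349.6 and 137.6 CPM and was at 10 CPM in 29 Ngp-negative cells (adjusted p = 0.171 without and 0.00251 with the block, edgeR). Ifitm1 stood at 38.6 and 100.5 CPM against 1082 and 1302 CPM (adjusted p = 0.00880 with the block), and Fxyd5 at 509 and 476 CPM against 2780 and 2673 CPM (adjusted p = 0.0601 with the block, edgeR). Ifitm1 and Ifitm6, of the same gene family, thus passed in opposite directions. In the interferon list no other gene passed: Slfn4 stood at 479 and 310.3 CPM against 80.3 and 75.3 CPM (adjusted p = 0.103 with the block). Of its 11 tested genes 1 was higher and 2 were lower on 4 of 4 plates, against 3.24% and 17.6% of all genes tested.

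The lists of growth, metabolism and structure held no gene that passed with edgeR. Their counts stand against 3.24% higher and 17.6% lower on 4 of 4 plates over all genes tested. DESeq2 called 485 of the 9354 genes that were tested with edgeR lower. Of 13 cell cycle genes tested, 1 was higher and 2 lower on 4 of 4 plates and none passed in either fit of edgeR (2 lower and 1 higher at a p under 0.05 without adjustment), and with DESeq2 3 were called lower. At least 4 of 18 cell cycle genes were at 50 CPM in 7 of 29 Ngp-positive cells, 3 of 9 female and 4 of 20 male. In the Ngp-negative cells this held for 7, 3 of 46 female and 4 of 58 male. The share was thus larger in the Ngp-positive cells of each animal. The median depths were 867309 and 552136 reads, as given above, and the part of depth in these shares was not tested. Hmgn2, a nucleosome-binding protein and the higher gene, stood at 560 and 545 CPM against 288.2 and 150.3 CPM (adjusted p = 0.318 with the block). Of 10 genes of ribosome biogenesis and translation, 0 were on the same side on all plates, and none passed with edgeR, at an unadjusted p under 0.05 or with DESeq2. Of 16 genes of glycolysis and oxygen sensing, 2 were higher and 3 lower on 4 of 4 plates. Of 17 genes of oxidant defence, 1 was higher and 7 were lower, among them both ferritin chains: Fth1 stood at 1287 and 1996 CPM against 4154 and 8018 CPM, and Ftl1 at 991 and 1376 CPM against 2467 and 4222 CPM (adjusted p = 0.186 and 0.601 with the block). Of 16 cytoskeletal genes 2 were higher and 3 lower, and of 10 genes of nuclear shape and chromatin 3 were lower and 0 higher, Hist1h2bc at 28.8 and 20.5 CPM against 165.1 and 286.7 CPM (adjusted p = 0.521 with the block). In the scaled fit 13 of the 16 cytoskeletal genes had a fold above 0 (median log2 fold change 0.31), and 11 of the 16 glycolysis genes (median 0.75). The medians were 0.37 for ribosome biogenesis and translation, -1.42 for cell cycle, -0.29 for oxidant defence and -0.18 for nuclear shape and chromatin. None of the genes of these 6 lists passed with edgeR, with or without the block, and DESeq2 called 1 glycolysis gene lower.

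More genes were detected per Ngp-positive cell. After each cell was thinned to 100000 reads, the Ngp-positive cells had medians of 1824 (female) and 1734.5 genes (male), and the Ngp-negative cells of 1274.5 and 1302 genes. The means of the 2 animals were 1779 ± 63.3 and 1288 ± 19.4 genes (SD, n = 2), so the states differed by more than the animals did. Without thinning the medians of the animals averaged 2392 and 1770 genes. With 2 animals per state the smallest 2-sided exact permutation p is 0.333, so no test was made.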

How the data were processed

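Single neutrophils of 1 female and 1 male mouse were analysed from the deposited table of read counts per gene and cell (18072 genes). Per the submitters' processing notes, the authors used STAR 2.5.2b and HTSeq 0.10, and these notes name GRCh38, a human build, for mouse cells; the mouse build is not given in the sources used here, and no coordinate was taken from the table. The deposited counts are raw and hold no molecular identifiers that the labels name. No 2 cells had identical counts, and 0 rows lacked a gene name.

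CPM is a gene's count per 1000000 reads of the cell. Counts were summed per animal and Ngp state into 4 libraries of 11983377, 18315347 (Ngp-positive, female and male), 30183183 and 34181858 reads (Ngp-negative). Ngp was left out, and the rest were filtered with filterByExpr, scaled with TMM and compared with the quasi-likelihood test of edgeR 4.0.16 (R 4.3.3), without a block as the main test. The libraries of 1 animal pair by construction; their deviations from the state means correlated at 0.17. Alternatives used the animal as a block, DESeq2 1.42.0, limma 3.58.1 (voom with quality weights), other thresholds, cells and scalings. The scripts were tested on simulated data with 9354 genes. There the comparison of the states without the block recovered 5 of 100 genes changed 8-fold and 43 of 100 changed 64-fold. Of its 65 calls, 17 were false. The fit with the block was not simulated, so its rates of missed and false calls are not known. A gene that passed may thus be unchanged, and a changed gene may be missed.

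The rule for named genes takes, from those called, the 12 largest changes in each direction that held in both animals and on the 4 plates, with at least 50 CPM in the higher state and at 10 CPM in at least 25% of its cells in each animal; where none was called, the 5 smallest p; then Camp, Ltf, Il1b and, from each list, the called genes and up to 4 of the highest mean level. Predicted genes, ribosomal and mitochondrial genes were left out of it. Other genes, among them list genes that passed only with the block, were named after their values were seen. The cells, lists and rule were chosen with earlier results of these data known, and 18 lists were used. Intervals are exact Clopper-Pearson at 95%, and a count of 0 allows up to 3 counts. PCR reads are not independent molecules, so they cover counting error only.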

Additional observations from a re-analysis of the deposited data

How the results depend on the processing

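The share of tested genes that passed was 0.0321% (3 genes). It was 0.481% (45 genes) with the animal as a replicate block, 8.32% (813) with DESeq2, 0.770% without a filter on low counts, 0.160% (15) with voom, 0.785% when all subtypes were fitted, 0.128% (12) when every cell had equal weight in its sum, and 0.176% (14) without cells that held markers of another type. Leaving out 1 of the 4 summed libraries gave 0.219% (26 genes, without the Ngp-positive female library) to 2.15% (250, without the Ngp-positive male library), 0.482% (54) without the Ngp-negative female and 0.865% (88) without the Ngp-negative male library, with the lone library of a state assumed to vary like the other state. The 13 remaining settings gave 2 to 4 genes, among them 2 settings chosen after seeing the data, namely 10000 CPM of Ngp as the threshold (3 higher, 1 lower) and leaving out cells with few neutrophil markers. The share of higher calls differed between tools, with 605 of the 813 calls of DESeq2 lower. Without thinning the genes per cell were 2392 and 1770, and those of the Ngp-positive cells were 1856.5 with cells of the title code DC35 alone. The shares of Ngp-positive cells stayed inside their intervals under each setting tried. Of the 75 genes that the naming rule takes, 13 took the other sign under at least 1 setting, none of them called, and no fold is given for them. Some genes with next to no reads in the Ngp-positive cells kept their sign but not their size. Over the alternative settings the log2 fold change ran from -16.2 to -2.15 for Il1rap, from -16.2 to -3.05 for Clec4n and from -15.7 to -4.11 for Prr5l. The biological coefficient of variation was 1.38 between 2 animals (1.24 with the block), which limits what the test can call.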

Other observations

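Of the 32 genes that passed as higher with the animal as a block, 15 are in none of the lists above. Those described here were named after their values were seen, with levels in the female, then the male, of the Ngp-positive and then of the Ngp-negative cells, and adjusted p-values are those of edgeR with the block. Flot2, the membrane scaffold flotillin 2, stood at 226.1 and 205.8 CPM against 0.729 and 1.404 CPM, and was at 10 CPM in 21 of 29 against 4 Ngp-negative cells (adjusted p = 0.00341). Adpgk, a glucokinase that uses ADP, stood at 2305 and 726 CPM against 145.3 and 86.04 CPM (adjusted p = 0.00187). Tkt, transketolase of the pentose phosphate pathway, stood at 1757 and 829 CPM against 263.6 and 181.4 CPM (adjusted p = 0.00999), and Aldh2, the mitochondrial aldehyde dehydrogenase, at 1105 and 807 CPM against 111.98 and 87.5 CPM (adjusted p = 0.00377). Olfml2b and Mlst8 had 0 reads in the Ngp-negative cells and were at 10 CPM in 9 and 10 of the 29 Ngp-positive cells. Mlst8, a subunit of both mTOR complexes, stood at 215.3 and 63.9 CPM in the Ngp-positive cells, with 34.8% of its reads there in 1 cell.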
